A study of Mus musculus with 3 samples.

Results

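Long noncoding RNAs (lncRNAs) are transcripts without an annotated coding sequence (CDS), and ribosome profiling, which sequences the fragments of RNA that ribosomes protect from nuclease, records whether and where ribosome footprints lie on them. The lncRNAs described here are the transcripts that have exon segments in the deposited 5′ UTR or 3′ UTR tables but none in the CDS tables, that belong to 1 of 5 lncRNA classes of the GENCODE M21 annotation of the mm10 mouse genome, and that overlap no CDS segment on the same strand. The longest such transcript of each gene was taken, and Gm10076 and Gm42418 were left out. These steps gave 9776 members, 1 per gene, of 142446 transcripts in the tables, with 28370 exon segments. A transcript without a CDS stood in the 5′ UTR tables when it lay on the minus strand and in the 3′ UTR tables when it lay on the plus strand, so that the table says nothing of a position within the lncRNA. The members were 4771 on the minus and 5005 on the plus strand.

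The study searched for translated open reading frames in primary mouse cortical neurons, cells cultured from the cortex of CD-1 mouse embryos in Neurobasal medium with B27 and Glutamax. No genetic change is named for them. It has 3 libraries, 1 per treatment, each pooled from 3 dishes. The drug was cycloheximide for 2 min in Chx, a stop on elongation, and harringtonine for 2 min in Harr, which traps ribosomes at start sites while others run off, with a cycloheximide pulse at the end. WT neurons had none (0 min). All 3 libraries shared rinse and lysis buffers with cycloheximide at 100 μg per ml. The libraries held 35722483 (Chx), 9754412 (Harr) and 30219197 (WT) reads. With 1 library per treatment no difference between treatments has a replicate check, no p-value is given. Intervals of counts, shares and ratios cover counting error only, and those of medians describe the spread over transcripts. Where 3 values follow each other, they stand in the order Chx, Harr and WT, and a value with ± after the reads of a gene is its Harr over Chx log2 ratio with the standard error from counts, unless another pair is named. CDS reads of 7 neuronal markers summed to 4537 (Chx), 4029 (Harr) and 4707 (WT) reads per 1000000, of which Map2 gave 2075, 2904 and 2231 and the other 6 together 2462, 1125 and 2476. Those of 4 astrocyte markers summed to 195, 78.8 and 213. Markers of microglia (4.00, 1.03 and 3.31) and of endothelial cells (0.392, 0.308 and 0.331) were near 0, and of 5 oligodendrocyte lineage markers (37.3, 23.6 and 43.5) Mog and Mobp had no read in any library.

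Many lncRNAs act in the nucleus, in chromatin silencing, in splicing bodies or as hosts from whose introns small nucleolar RNAs (snoRNAs) or microRNAs are cut. Others are exported to the cytoplasm, where ribosomes can initiate on short open reading frames and where some encode small proteins. A footprint count alone does not separate the amount of an RNA from its translation, and no RNA-seq library is among the 3 used here. Nor does it tell fragments protected by ribosomes from others. All counted reads are called footprints here, and their source was not tested. Annotation classes name position and not function: antisense transcripts run opposite to a coding gene, lincRNAs lie between genes, sense_intronic transcripts lie within an intron, bidirectional_promoter_lncRNA transcripts start next to a coding gene's promoter on the other strand, and processed_transcript is a remainder.

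Harringtonine footprints gather at sites of initiation, so the start of the longest ATG frame is shown for the 6 members with the most Harr reads among the 12 most-read members. Each window holds 30 bases of the GENCODE M21 transcript, 5′ to 3′, with the ATG in capitals.
Peg13: ataggcactgagATGacttcggcagacatc
Rmrp: catacgagggacATGttccttatcctttcg
1500004A13Rik: attaggggggagATGgaggaggccacaagg
C130071C03Rik: gggggtaggggtATGaaaaaaacatcaagc
B930036N10Rik: agcaacagggggATGgagcagaaagcagat
Gas5: taactgctggatATGtgcaactcaacagtg
The windows lie in mm10 at chr15:72807743-72807772 (minus strand, Peg13), chr4:43492999-43493028 (minus, Rmrp), chr3:88820878-88820907 (minus, 1500004A13Rik), chr13:83739890-83739919 (plus, C130071C03Rik), chr1:171501312-171501341 (minus, B930036N10Rik) and chr1:161035645-161035674 (plus, Gas5). The frames have 106 codons in Peg13, 43 in Rmrp, 113 in 1500004A13Rik, 100 in C130071C03Rik, 127 in B930036N10Rik and 58 in Gas5. In 1500004A13Rik the frame begins at base 4804 of 6054, in the last of 2 exons, and that exon held 19 (Chx), 3 (Harr) and 12 (WT) of the reads while the first exon of 284 bases held 826, 730 and 559. The longest frame of this transcript is therefore not where its footprints lie. The tables give counts per exon and not per base, so no footprint can be placed on an ATG.

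Most lncRNAs had no footprint. Of the 9776 members 3001 (30.7%) had at least 1 read in the 3 libraries together, 1093 had at least 10, 437 had at least 50 and 137 had at least 200. The 437 members (4.47%) held 87.0% of all member reads. Chx held 64451 member reads, or 0.180% of its reads (0.179 to 0.182, the Wilson 95% interval), and WT held 54254, or 0.180% (0.178 to 0.181). The Harr library held 36450, or 0.374% (0.370 to 0.378). A member without a read in a library can lie at up to 0.0840 (Chx), 0.308 (Harr) or 0.0993 (WT) reads per 1000000, the level of 3 counts.

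The classes differed in how many members carried footprints. Bidirectional_promoter_lncRNA members had at least 1 read in 76.8% of 190 cases and at least 50 in 19.5%, and processed_transcript members in 56.5% and 15.0% of 718. LincRNAs, with 5593 members, had at least 1 read in 24.0% and at least 50 in 2.74%, antisense members in 35.8% and 4.65% of 2949, and sense_intronic members in 15.3% and 0.613% of 326. LincRNAs took 0.0590% of Chx, 0.125% of Harr and 0.0564% of WT reads, antisense members 0.0449%, 0.0855% and 0.0480%, and processed_transcript members 0.0463%, 0.0956% and 0.0451%. In the sense_intronic class, at 0.0230%, 0.0517% and 0.0227%, the gene Peg13 alone held 97.8% of the reads.

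Reads were concentrated in few members, as the plot of the 12 most-read lncRNAs shows. Peg13, a paternally expressed imprinted RNA read from an intron of a coding gene on chromosome 15, had 8002 (Chx), 4948 (Harr) and 6699 (WT) reads, or 12.4%, 13.6% and 12.3% of all member reads. The 12 most-read members together held 32.0%, 29.9% and 31.9%. Per length, Peg13 stood at 47.4 (Chx), 107 (Harr) and 46.9 (WT) reads per kilobase per 1000000 (RPKM). Rmrp, the RNA component of the RNase MRP ribonucleoprotein, had fewer reads (1936, 963 and 951) on only 281 bases, and its density was the highest among the 12, at 193, 351 and 112 RPKM. Whether the Rmrp reads came from ribosomes was not tested.

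**Figure D1:**
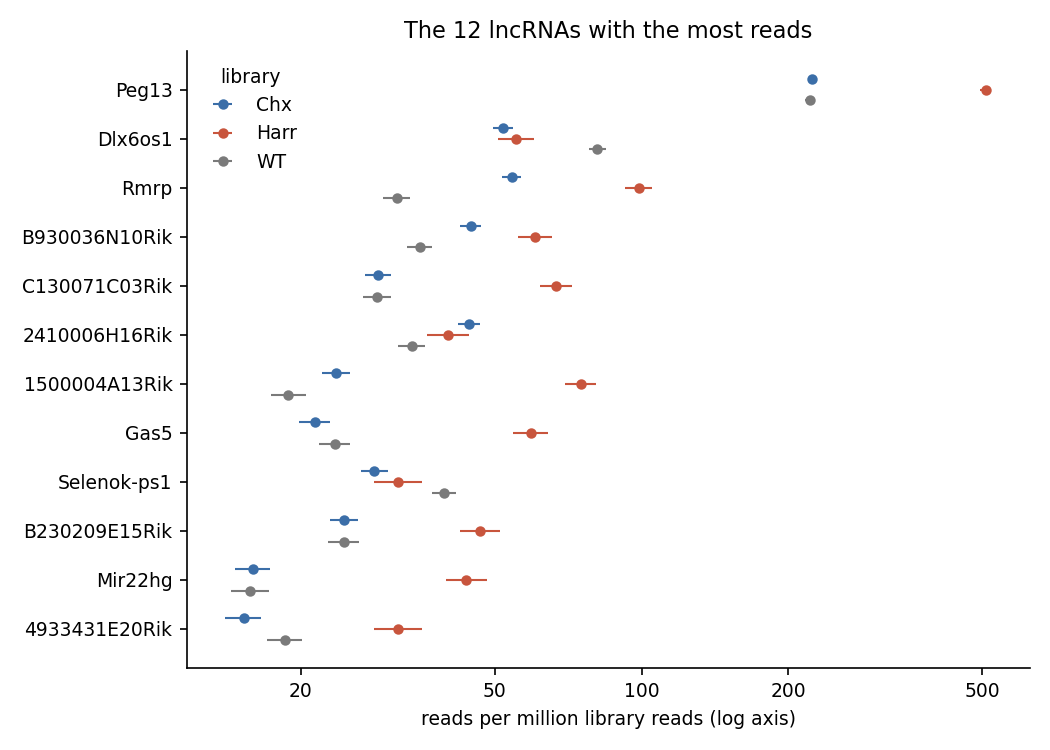
Reads per 1000000 library reads (log axis) of the 12 lncRNAs with the most reads, with 1 point per library and bars for the exact Poisson 95% counting interval. Peg13 lies to the right of all others in each library, and the Harr point lies to the right of both other points in every row except Dlx6os1, 2410006H16Rik and Selenok-ps1.

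Compared with coding regions, footprints on lncRNAs were sparse. Among regions with at least 50 reads, the median density of lncRNAs was 0.790 RPKM for Chx (distribution-free 95% interval of the median 0.715 to 0.912, n = 437), 1.72 for Harr (1.58 to 2.03) and 0.7995 for WT (0.729 to 0.944). The median of 12237 coding sequences was 10.96, 7.07 and 10.3 RPKM, that of 7758 5′ UTRs 13.5, 47.8 and 7.56, and that of 1607 3′ UTRs 0.359, 3.94 and 0.899. The lncRNA median lay between those of the 3′ UTR and the CDS in Chx and below all 3 coding regions in Harr, and in WT its interval overlapped that of the 3′ UTR (0.835 to 0.984). Without a read minimum the median of 9776 lncRNAs and that of 18807 3′ UTRs were 0 in each library. That of 20758 coding sequences was then 2.06, 1.34 and 1.92 RPKM, and that of 19449 5′ UTRs 1.08, 3.51 and 0.586. Above the median coding sequence lay 11 of 437 members in Chx, 54 in Harr and 10 in WT. Rmrp, 2410006H16Rik, Peg13, Selenok-ps1, Dlx6os1 and B230209E15Rik were above it in all 3 libraries, as were Gm17750 and 3110039M20Rik, which are named after their values were seen.

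The main comparison asked whether footprints on lncRNAs differ between the libraries as footprints in coding sequences do. In log2 ratios of reads per 1000000, with 0.5 added to each count and at least 50 reads in the pair, the median lncRNA was 1.17 higher in Harr than in Chx (interval 1.12 to 1.21, n = 318), while the median coding sequence stood at -0.59 (-0.61 to -0.57, n = 11656). Against WT the medians were 1.19 (1.09 to 1.26, n = 291) for lncRNAs and -0.51 for coding sequences. The median 5′ UTR stood at 1.87 (Harr over Chx, n = 7250) and 2.66 (Harr over WT, n = 6555), and the median 3′ UTR at 3.37 (n = 1072) and 1.98 (n = 1321). The read minimum can be met by Harr reads alone, which can raise such medians. In Harr over Chx it was met by 318 of 9776 lncRNAs and 1072 of 18807 3′ UTRs. Scaling to CDS reads instead of library reads moved all of these ratios together, by 0.55 and 0.51, so the comparison free of scaling is the difference between medians. Scaled to CDS reads the medians were 1.71 for lncRNAs and -0.04 for coding sequences in Harr over Chx, and 1.71 and 0.00497 in Harr over WT, so whether coding sequences lie below 0 depends on the scaling. LncRNAs stood 1.76 above coding sequences in Harr over Chx and 1.70 above in Harr over WT. Reads were counted at their 5′ end with an offset of 0, so reads of ribosomes at a CDS start can fall in the 5′ UTR. Reads at a start within a lncRNA stay in its sum, and the part of this in the difference was not tested. In both pairs the lncRNA median lay above that of the CDS and below those of both UTRs. Between Chx and WT the lncRNA median was -0.01 (-0.05 to 0.03, n = 352), beside 0.07 for the CDS, 0.71 for the 5′ UTR and -0.91 for the 3′ UTR.

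Counts of members past 2-fold, under the same read minimum, showed the same order. Of 318 lncRNAs, 199 (62.6%) had a Harr level at least 2-fold above that of Chx and 7 (2.20%) one at least 2-fold below, beside 0.652% and 31.2% of coding sequences, 91.8% and 0.0138% of 5′ UTRs and 93.6% and 0.746% of 3′ UTRs. Against WT, 172 of 291 (59.1%) were higher and 5 (1.72%) lower, beside 0.724% and 29.0% of coding sequences, 96.5% and 0.0458% of 5′ UTRs and 80.8% and 1.21% of 3′ UTRs. Between Chx and WT 6 of 352 (1.70%) were higher and 6 (1.70%) lower, beside 0.388% and 0.190% of coding sequences, 35.4% and 0.455% of 5′ UTRs and 0.117% and 46.9% of 3′ UTRs. None of these 12 members had 200 reads in the pair. Scaled to CDS reads, 269 lncRNAs (84.6%) were higher and 3 lower in Harr than in Chx, beside 4.84% and 14.1% of coding sequences, and 239 (82.1%) and 3 against WT, beside 5.36% and 14.6%. The upper quartile of coding sequences in Harr over Chx, -0.12, was exceeded by 302 of 318 lncRNAs, and 8 lay below the CDS median.

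**Figure D2:**
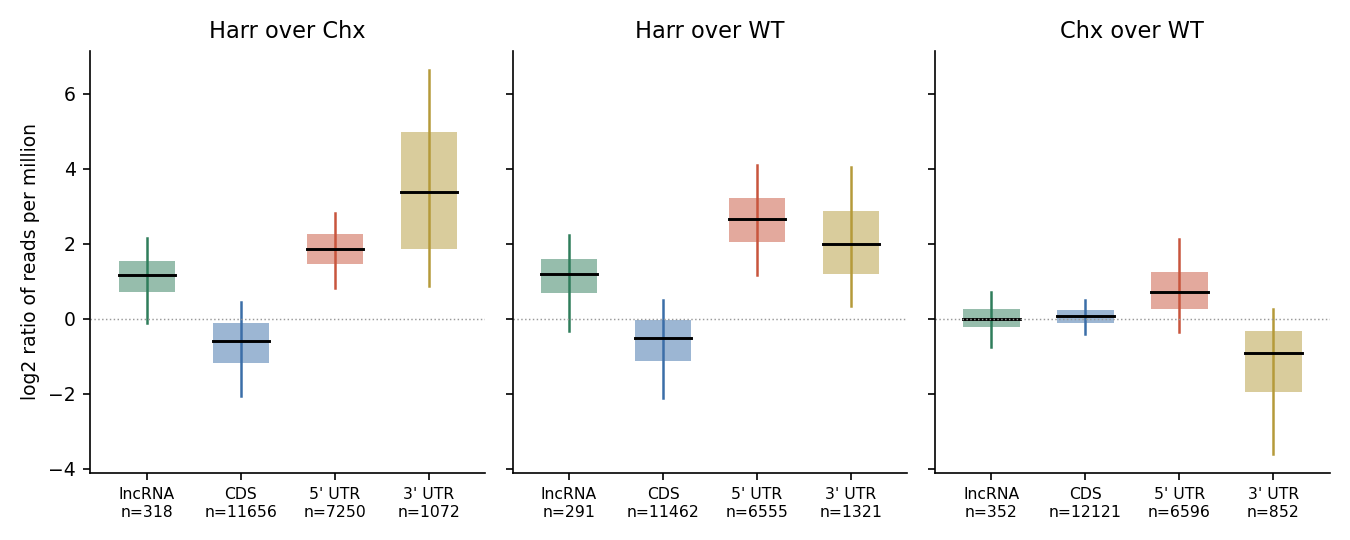
Log2 ratios of reads per 1000000 between the libraries of each pair (1 panel per pair) for lncRNAs, coding sequences and UTRs of coding genes with at least 50 reads in the pair. The black line is the median, the box spans the quartiles and the thin line runs from the 5th to the 95th percentile. In both pairs with Harr the lncRNA box lies above the CDS box and its median below the medians of both UTRs.

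Summed reads, which need no read minimum, gave a similar contrast. Relative to CDS reads, lncRNA reads in Harr had a log2 odds ratio of 1.60 to those in Chx (95% counting interval 1.58 to 1.62) and of 1.57 to those in WT (1.55 to 1.59). Without Peg13 the values were 1.58 and 1.55. The 5′ UTR stood at 2.52 and 3.09 and the 3′ UTR at 2.93 and 2.20. Between Chx and WT the lncRNA ratio was -0.03 (-0.05 to -0.01), that of the 5′ UTR 0.57 and that of the 3′ UTR -0.73.

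The median log2 ratio of Harr over Chx was above 1 in each class with more than 2 members. It was 1.15 in lincRNAs (n = 113), 1.12 in antisense members (n = 92), 1.28 in processed_transcript members (n = 86) and 1.17 in bidirectional_promoter_lncRNA members (n = 25). In the sense_intronic class 2 members could be compared, with a median of 0.78 and 1 of 2 at least 2-fold higher in Harr. By strand it was 1.15 on the plus (n = 165) and 1.18 on the minus strand (n = 153), although the strands come from different tables. Members with a small RNA gene in an exon stood at 1.21 (n = 34) and those whose exons lie opposite a CDS at 1.16 (n = 61). Single-exon members stood at 1.05 (n = 68) and multi-exon members at 1.18 (n = 250). Members with at least 20% of their 25-base words in transcripts of other genes stood at 0.92 (0.25 to 1.21, n = 28), and those with fewer at 1.18 (1.13 to 1.26, n = 288).

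A property of the sequence that did go with the ratio was the longest ATG frame. Over 316 members the Harr over Chx log2 ratio had a Spearman's rho of -0.32 (Pearson's r -0.21) with the number of codons of that frame, and of 0.23 (Pearson's r 0.06) with the position of its ATG. With length, GC content and the number of exons rho was -0.05, 0.03 and 0.03, and with the percent of shared words it was -0.07 (Pearson's r -0.19). These are correlations across lncRNAs of the same libraries, which are not independent replicates, and they are given as descriptions. Members with a frame of at least 100 codons had a median of 1.06 (0.79 to 1.21, n = 103) and those with shorter frames 1.19 (1.13 to 1.35, n = 213). The longest frame of the 437 members with at least 50 reads had a median of 81 codons, and 149 members had one of at least 100.

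The ratio also varied with the place of an exon relative to this frame. In multi-exon members with at least 50 reads, exons wholly upstream of the ATG had 2.79 (Chx), 7.68 (Harr) and 2.37 (WT) RPKM over 226 members. The exon with the ATG had 1.06, 2.06 and 1.12 RPKM, later exons of the frame 0.988, 1.28 and 1.07, and exons wholly downstream 0.946, 1.68 and 1.23. The log2 ratio of Harr over Chx was 1.46 ± 0.02 (SE from counts) upstream, 0.96 ± 0.02 in the exon with the ATG, 0.37 ± 0.04 in later exons of the frame and 0.83 ± 0.04 downstream. For frames of at least 100 codons it was 1.65 ± 0.04, 0.83 ± 0.03, -0.21 ± 0.06 and 0.80 ± 0.10 in the same order. The value of -0.21 rests on 1 member: without Gm6787, whose last exon holds a stretch identical to the Psmb7 CDS, the later exons of the frame stood at 0.03 (Harr over Chx, 2223 Chx and 621 Harr reads) and at -0.05 in place of -0.31 (Harr over WT). Scaled to CDS reads, with Gm6787 included, they stood at 0.33 and 0.20. Over all frames the later exons stood at 0.52 without Gm6787 and 0.20 without Gm48693, and the downstream exons at 1.37 without Dlx6os1. These members were found by leaving out each member in turn, which was chosen after the data were seen. Leaving out members whose most-read exon had at least 20% shared words, an alternative chosen after the data were seen, gave 1.43, 1.02, 0.28 and 0.85 over all frames. The sums rest on different members in each position. Only 12 members had at least 20 Chx and Harr reads both upstream and in later exons of the frame, and the upstream ratio was the higher in 7 of them, with 6 beyond the 95% counting interval and 1 beyond it the other way. Against WT it was the higher in 11 of 13.

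**Figure D3:**
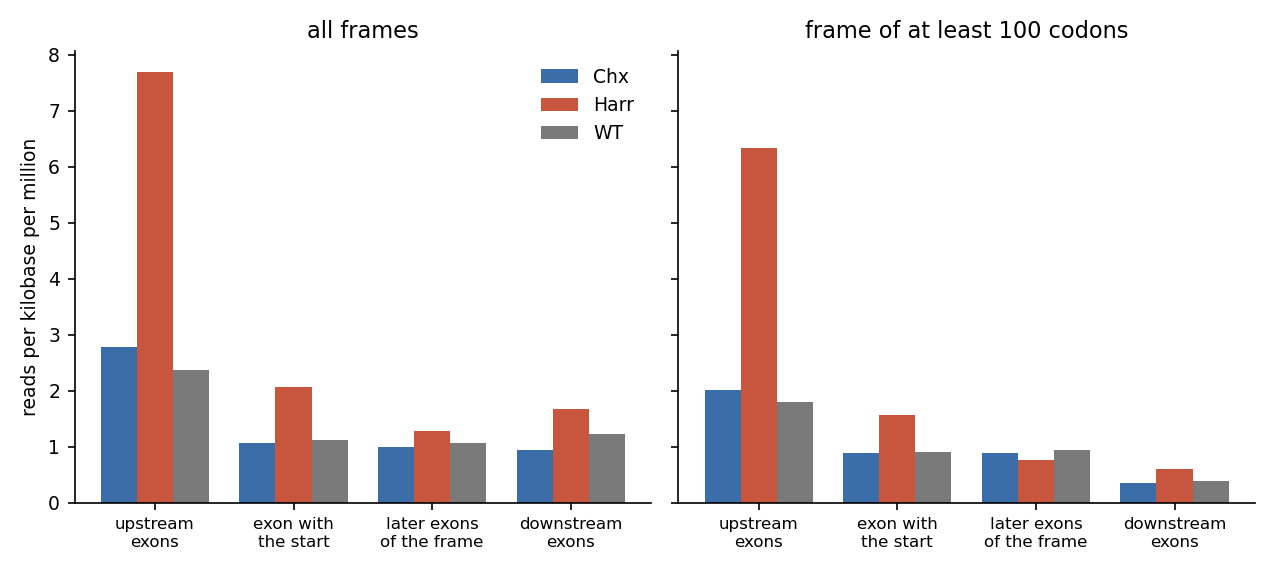
Summed reads per kilobase per 1000000 in exons of multi-exon lncRNAs, by library, for all longest ATG frames (left) and for frames of at least 100 codons (right). Harr is the highest bar in every position of the left panel, and in the right panel it is the lowest bar in later exons of the frame (0.765, beside 0.887 in Chx and 0.950 in WT). Without Gm6787 the log2 ratio behind that last bar is 0.03 (Harr over Chx) and -0.05 (Harr over WT), and with it, scaled to CDS reads, 0.33 and 0.20, so that Harr is the lowest bar only with Gm6787 and library scaling.

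The first exon, which needs no frame to be defined, held more than its share of the length of all multi-exon members. It made up 21.05% of the length of 8800 multi-exon members and held 38.4% of their Chx reads (38.0 to 38.9 by Wilson), 45.5% of their Harr reads (44.9 to 46.1) and 31.2% of their WT reads (30.8 to 31.7). The length share includes members without a read, and that of the members that carry the reads is not given. Of 216 members with at least 20 reads in each library, the first exon share was higher in Harr than in Chx beyond the 95% counting interval in 52 and lower in 10, against WT in 67 and 9, and in Chx against WT in 41 and 5. No such count was made over coding transcripts, so whether these numbers are particular to lncRNAs was not tested. Among those with at least 10 reads of the pair both in the first exon and outside it, a limit set after the data were seen, the median log2 odds ratio was 0.53 (0.32 to 0.84, n = 151) for Harr over Chx, 1.12 (0.81 to 1.43, n = 144) for Harr over WT and 0.55 (0.38 to 0.70, n = 147) for Chx over WT. Of 195 members with at least 3 exons and at least 50 reads, 151 had at least 50% of them in 1 exon.

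Some members divided their exons between the libraries. B230209E15Rik, a lincRNA of 5 exons at chr7:61529871-61615327 on the minus strand, has a frame of 163 codons that begins in exon 2 and ends in exon 3. Its total was 877 (Chx), 456 (Harr) and 741 (WT) reads, a Harr over Chx log2 ratio of 0.93 ± 0.08 (SE from counts). Exon 1, upstream of the frame, had 173, 245 and 114 reads (log2 ratio 2.37 ± 0.14), exon 2 had 95, 61 and 103 (1.24 ± 0.24), exon 3 had 452, 66 and 377 (-0.89 ± 0.19), and exon 5, downstream, had 138, 79 and 140 (1.07 ± 0.20). Scaled to library reads, the gene as a whole was higher in Harr, and exon 3, which held 51.5% of its Chx reads, was lower. Scaled to CDS reads exon 3 stood at -0.35, beside the same standard error of 0.19. Exon 3 has 23.0% of its words in transcripts of other genes.

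Gm5165, a lincRNA on chromosome 17, has a frame of 667 codons from base 125 in exon 1 to base 2128 in exon 4. Exon 1 had 38 (Chx), 106 (Harr) and 35 (WT) reads, exon 2 had 13, 0 and 15, and exon 4, the largest, had 42, 7 and 41. Over all exons it was among the 3 members with the highest Harr over Chx ratio among those with at least 200 reads in the pair, at 2.15 ± 0.20. Of its words 44.1% occur in other transcripts, most of them in Zfp97, which encodes a zinc finger protein. The starts of both frames, chosen for display after these values were seen, lie at chr7:61604618-61604647 (minus strand) and chr17:17234984-17235013 (plus strand) in mm10 and read as follows, with the ATG in capitals.
B230209E15Rik: taatgctcctggATGatatctagctctcag
Gm5165: tgaaagtgcgacATGatgaggatattgtca

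AC133601.1, a lincRNA with a frame of 148 codons from base 91 in exon 1, showed a like division. Exon 1 had 93 (Chx), 40 (Harr) and 56 (WT) reads, and exon 2 had 239, 19 and 220, while exon 3, of 3538 bases, had 0, 1 and 0. Dlx6os1, an antisense RNA of the Dlx5 and Dlx6 locus known from inhibitory neurons, had its highest level per library read in WT. It had 1857 (Chx), 539 (Harr) and 2455 (WT) reads, log2 ratios of 0.09 ± 0.07 (Harr over Chx), -0.56 ± 0.07 (Harr over WT) and -0.64 ± 0.04 (Chx over WT). Scaling to CDS reads adds 0.51 to Harr over WT, which brings Dlx6os1 in Harr and WT within that standard error of each other. Its last exon, with 1539, 308 and 2019 reads, stood at -0.45 ± 0.09 in Harr over Chx, which turned to 0.10 when scaled to CDS reads, and its second exon, with 306, 209 and 430, at 1.32 ± 0.13. Its longest frame has 63 codons and begins in that second exon. The CDS of Gad1, a marker of inhibitory neurons, had 23119, 3268 and 22413 reads. In such pooled cultures fewer cells of a type and fewer footprints per cell cannot be told apart.

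**Figure D4:**
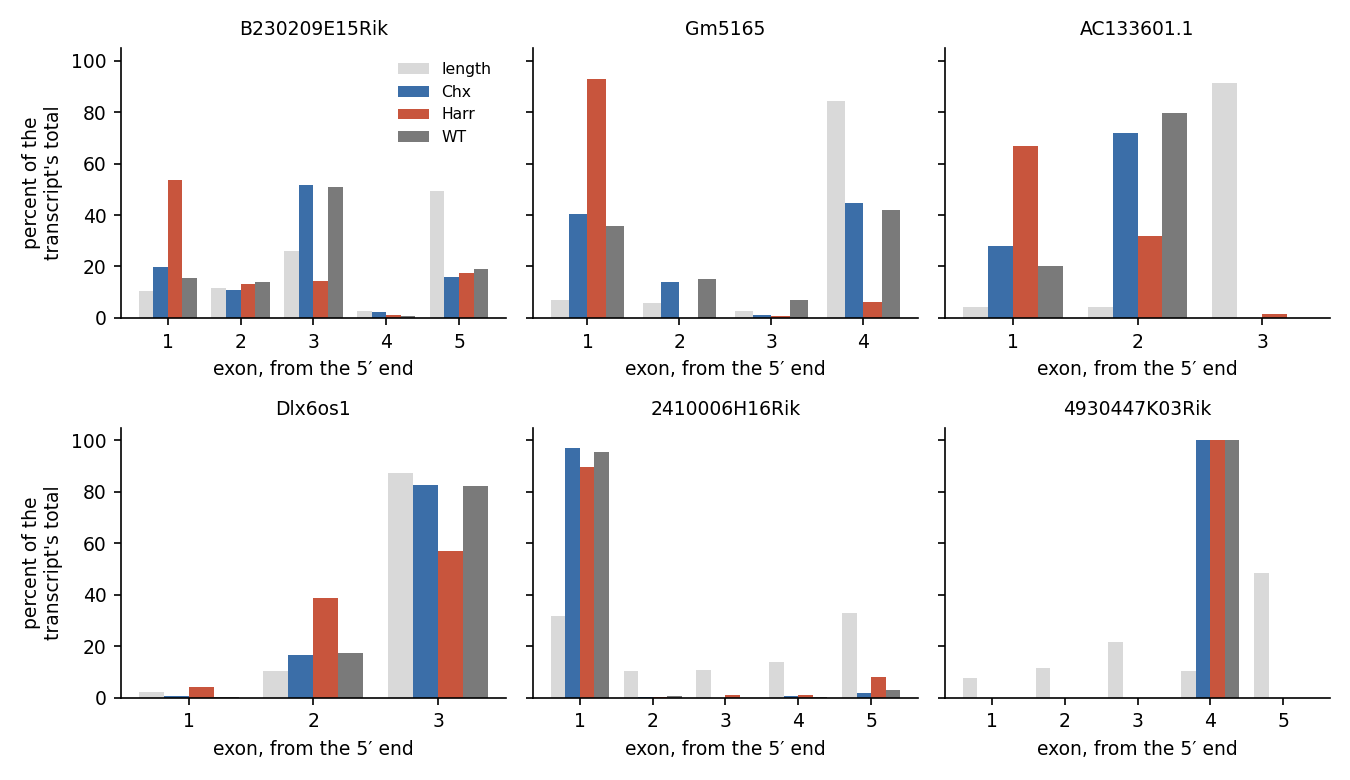
Percent of a transcript's reads in each exon, from the 5′ end, in the 3 libraries, beside the exon's percent of the transcript's length (light bars), for 6 lncRNAs. In B230209E15Rik, Gm5165 and AC133601.1 the Harr share is largest in exon 1 while Chx and WT have their largest share in a later exon, and in 4930447K03Rik all reads of all libraries lie in exon 4.

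At the low end of Harr over Chx, the 3 lowest members with at least 200 reads had part of their sequence in common with other genes, as did 204 of 316 tested members. The lowest of them was 4930447K03Rik, with 858 (Chx), 29 (Harr) and 931 (WT) reads (log2 ratio -2.99 ± 0.27). All of its reads lay in exon 4 of 5, of 109 bases at chr13:34088921-34089029 (minus strand), in which 32.1% of the words occur in transcripts of other genes. Its longest identical stretch with Tubb2a, a β-tubulin gene, has 59 bases in the Tubb2a CDS, and that CDS had 74946, 5947 and 53676 reads (-1.78 ± 0.02). Next was Gm6787 on chromosome X, with 505, 23 and 475 reads (-2.55 ± 0.30), nearly all in its last exon of 1152 bases. The exon shares 9.13% of its words, and its longest stretch in Psmb7, a proteasome subunit gene, has 43 bases in the CDS, which stood at -1.26 ± 0.06. Gm4349, with 254, 30 and 157 reads (-1.19 ± 0.28), has 26.4% shared words, most of them with Setdb1, a histone methyltransferase gene, where the longest stretch lies in a transcript without a CDS. How reads that fit several places were assigned in these tables is not stated, and the part that shared sequence has in these ratios was not tested. The middle 30 bases of both stretches in a CDS, at chr13:34088960-34088989 (minus) and chrX:8105751-8105780 (plus), are shown because the reads of these lncRNAs lie in the exons that hold them.
4930447K03Rik and Tubb2a: ctggcagttaccatggcgacagtgacttgc
Gm6787 and Psmb7: ctctacagcatctatcctcatggatcaact

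The other 4 members at least 2-fold lower in Harr than in Chx had fewer reads and were named after their values were seen. Gm49700 had 62 (Chx), 1 (Harr) and 36 (WT) reads and 70.4% shared words, Gm43713 had 72, 8 and 75 and 86.9%, Gm10482 had 89, 8 and 57 and 12.5%, and Gm11837 had 58, 7 and 25 and none. Of the 7 members, 6 had at least 1 shared word and 3 had at least 20%, beside 204 and 28 of all 316 tested members with a sequence. Scaled to CDS reads, only 3 of the 7 were still at least 2-fold lower: 4930447K03Rik, Gm6787 and Gm49700.

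At the high end, several members overlap coding exons or share sequence with other genes. Gm49685, an antisense RNA, had 92 (Chx), 132 (Harr) and 56 (WT) reads (log2 ratio 2.39 ± 0.20), all in its first 2 exons, which overlap exons of coding genes on the same strand. Gm49397, with 234, 280 and 122 reads (2.13 ± 0.13), had most reads in exons with such overlap. Gm48693, with 193, 263 and 96 reads (2.32 ± 0.14), has 72.5% shared words, most of them with Asap2. Its longest stretch shared with Asap2 lies in exon 1, which had 28, 36 and 0 reads, while exon 2, with 165, 227 and 96, has 40.4% shared words. By contrast 5430416N02Rik, a lincRNA with 435, 417 and 230 reads (1.81 ± 0.10, and 2.49 ± 0.12 over WT), had 394, 378 and 185 of them in its first exon of 191 bases, which shares no word and overlaps no coding exon. Of the 437 members with at least 50 reads, 17 overlapped a coding exon on the same strand, 38 held a small RNA gene, and 34 had at least 20% shared words. The 350 without such marks, also in the most-read exon, were the larger number.

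**Figure D5:**
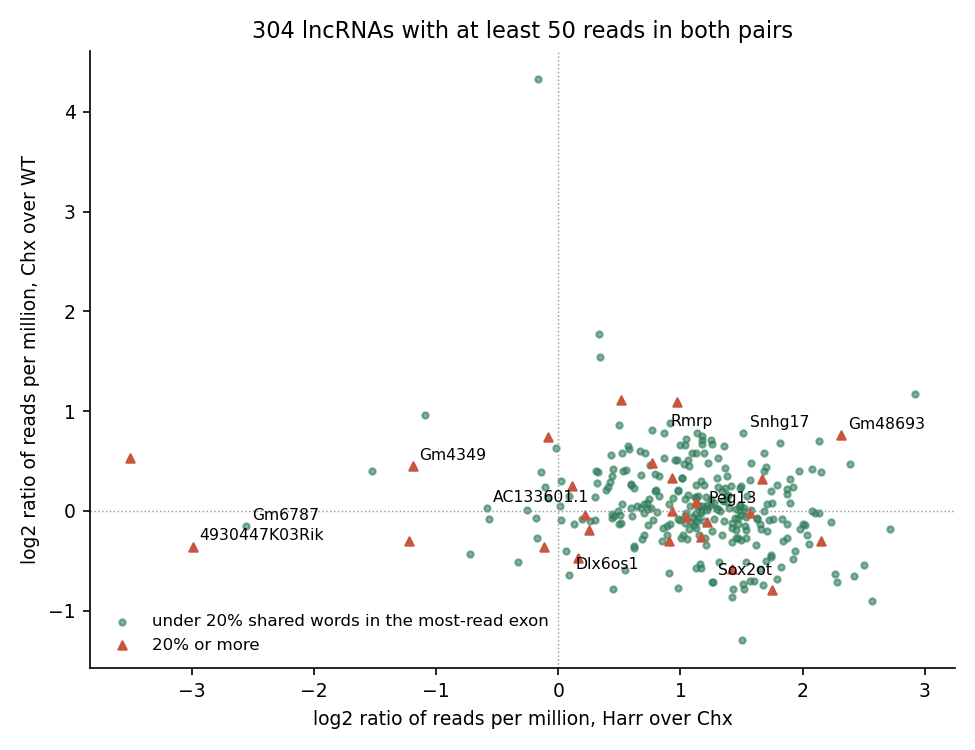
Log2 ratio of Harr over Chx (x axis) against Chx over WT (y axis), 1 point per lncRNA with at least 50 reads in both pairs (n = 304). Triangles mark members whose most-read exon has at least 20% of its 25-base words in transcripts of other genes. On the x axis 283 points lie above 0.

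Between Chx and WT the members with at least 200 reads stayed within 2-fold. The highest were Rmrp (log2 ratio 0.78 ± 0.06), Snhg17 (273, 213 and 134 reads, 0.78 ± 0.15) and Gm48693 (0.76 ± 0.18). The lowest were Gm3693 (106, 57 and 154 reads, -0.78 ± 0.18), Gm47204 (86, 67 and 121, -0.73 ± 0.20) and Sox2ot (138, 90 and 191, -0.71 ± 0.16), the overlapping transcript of the gene for the neural progenitor factor Sox2. Among members with fewer reads 1700030C10Rik, named after its values were seen, had 59 (Chx), 14 (Harr) and 2 (WT) reads.

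Other abundant members also differed in where their reads lay. C130071C03Rik, a lincRNA that carries a miR-9 precursor, had 1030, 652 and 868 reads (1.21 ± 0.07), with log2 ratios of 1.68 and 2.00 in its first 2 exons, 0.40 ± 0.33 in the third and 1.00 in its last. 2410006H16Rik, with 1583, 392 and 1021 reads, had 97.2% of its Chx reads in a first exon of 147 bases and a ratio of -0.14 ± 0.08, while its last exon of 153 bases had 29, 31 and 33 reads (1.97 ± 0.37). Scaling to CDS reads adds 0.55 to each Harr over Chx ratio, which makes the -0.14 of 2410006H16Rik positive. B930036N10Rik, a single-exon antisense RNA with 1595, 591 and 1060 reads, stood at 0.44 ± 0.07. Selenok-ps1, named as a pseudogene of the selenoprotein gene Selenok and classed as processed_transcript, had 1013, 309 and 1190 reads (0.16 ± 0.09). The Selenok CDS stood at -0.11 ± 0.06, which is also positive when scaled to CDS reads. The highest ratio of the 12 was that of 1500004A13Rik, 845, 733 and 571 reads (1.67 ± 0.07), whose first exon shares 82.4% of its words, with a longest stretch of 153 bases across an end of the CDS of the synaptotagmin gene Syt11. The Syt11 CDS stood at -1.03 ± 0.04. The last of the 12, 4933431E20Rik, an antisense RNA with 546, 309 and 561 reads (1.05 ± 0.10), had ratios of 1.75 and 1.71 in its first 2 exons and 0.50 in the third.

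SnoRNA host genes, whose spliced exons are exported while their introns give snoRNAs, had reads on every member of the list. The transcripts counted here are not all spliced forms: 6 of the 16 are retained_intron models and 9 hold a small RNA gene in an exon, so the counts include intron sequence. Of 20 listed genes those 16 were members, and 12 of them had at least 50 reads. Their Harr over Chx ratio was at least 2-fold in 9 of 11 (median 1.31), beside 62.6% and a median of 1.17 over all lncRNAs tested. Gas5, named for growth arrest, had 764, 578 and 710 reads (1.47 ± 0.08), with 97.5% of Chx reads in its annotated first exon of 2382 bases, which contains snoRNA genes. Snhg5 had 409, 415 and 277 reads (1.89 ± 0.10), Snhg1 537, 312 and 492 (1.09 ± 0.10), Snhg12 317, 172 and 285 (0.99 ± 0.14) and Zfas1 226, 153 and 189 (1.31 ± 0.15). In Snhg1, Snhg12 and Zfas1 too the most-read exon holds a small RNA gene. In Zfas1 the first exon held 66.8% (Chx), 86.3% (Harr) and 41.3% (WT) of the reads. Host genes gave 89.0 (Chx), 231 (Harr) and 88.3 (WT) reads per 1000000 in all.

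Nuclear and chromatin RNAs ranged widely in footprints per length. Of 11 members 10 had reads and 6 had at least 50, and 2 of 5 were at least 2-fold higher in Harr than in Chx (median 0.68), beside 62.6% of all lncRNAs tested. Malat1, an RNA of nuclear speckles, had 530, 231 and 350 reads (0.68 ± 0.11) over 6983 bases, or 2.12, 3.39 and 1.66 RPKM. Kcnq1ot1, which silences an imprinted cluster, had 41, 31 and 42 reads (1.47 ± 0.34) over 93092 bases, or 0.0123, 0.0341 and 0.0149 RPKM. Miat had 92, 39 and 75 reads (0.65 ± 0.27) and Pvt1, next to Myc, 146, 57 and 118 (0.52 ± 0.22). With these counts the intervals of single genes are wide.

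Among imprinted RNAs Peg13 had by far the most reads. Of 12 members 10 had reads and 5 at least 50, with 2 of 5 at least 2-fold higher in Harr than in Chx (median 0.52), where all lncRNAs tested had 62.6%. Peg13 stood at 1.18 ± 0.03 in Harr over Chx, 1.19 ± 0.03 in Harr over WT and 0.02 ± 0.02 in Chx over WT. Meg3, the maternally expressed RNA of the Dlk1 to Dio3 domain, had 228, 84 and 202 reads (0.44 ± 0.18) over 14548 bases, and Rian of the same domain 213, 83 and 120 (0.52 ± 0.19). Kcnq1ot1, also on this list, stood at 1.47 ± 0.34 in Harr over Chx, above Peg13 by less than its standard error. Peg13 alone held nearly all reads of the list, which were 8578, 5197 and 7113 in all.

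The remaining lists had medians on both sides of that of all lncRNAs tested (1.17, with 62.6% at least 2-fold higher), and 1 to 10 members could be compared in each. Of 11 microRNA hosts 4 had at least 50 reads and 3 of 3 tested were at least 2-fold higher in Harr than in Chx (median 1.17): Mir22hg with 571, 427 and 477 reads (1.45 ± 0.09), Mir9-3hg with 413, 246 and 393 (1.13 ± 0.12) and Mir670hg with 416, 256 and 341 (1.17 ± 0.11). Mir22hg overlaps a coding exon on the same strand. Of 12 neural lncRNAs 10 had at least 50 reads and 5 of 10 were at least 2-fold higher (median 0.89), among them Pantr1, a neighbour of the neuronal factor gene Pou3f3, with 348, 374 and 333 reads (1.98 ± 0.11). In Pantr1 93.8% of all reads lay in a second exon of 163 bases. The neural lncRNA 1700020I14Rik had 498, 199 and 316 reads (0.55 ± 0.12). Of 7 cytoplasmic members 4 had at least 50 reads and 3 of 4 were at least 2-fold higher (median 1.39). 2900097C17Rik, also known as Norad, a cytoplasmic RNA that binds Pumilio proteins, had 137, 71 and 92 reads (0.93 ± 0.21), with 47.0% shared words. Of 10 loci with described microproteins 3 were members, and of these Tug1 had 137, 118 and 131 reads (1.66 ± 0.18), Crnde 5, 0 and 5, and the third had none.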

How the data were processed

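The authors deposited 9 tables, for 3 libraries and 3 regions (5′ UTR, CDS, 3′ UTR), with 1 exon segment of 1 transcript per line. Deposited read counts are whole and not normalized. The deposited coverage signal (counts per nucleotide) and the deposited RPKM were not used, and RPKM was recomputed from counts. Per the file headers, reads of 25 to 100 nucleotides were counted at the 5′ end with an offset of 0 on mm10 alignments without ribosomal and duplicate reads. For its search for reading frames the study's methods name TopHat, with several alignments allowed per read, and no source used here says that the counted alignments are the same.

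Transcripts were matched to GENCODE M21, 99.1% of them with the version and 99.4% without. Of 75208 transcripts with no CDS 15340 were of the 5 lncRNA classes, 167 of these overlapped a CDS on the same strand, and 15170 were kept. The members and gene lists were chosen with earlier results of these data known. Counts were summed over exons, each coordinate once. Ratios are log2 ratios of reads per 1000000 library reads with 0.5 added, for at least 50 reads in the pair, and a member was called past 2-fold. Coding genes were taken by their longest transcript (20758, with 19449 5′ UTRs and 18807 3′ UTRs free of CDS overlap). Standard errors are from counts, shares have Wilson 95% intervals, levels of single genes exact Poisson 95% intervals, and medians order-statistic intervals that describe transcripts and not replicates. Amplified reads are not independent molecules, so the other intervals, and the floor of 3 counts, describe counting error alone.

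The genes named are the 12 with the most reads per 1000000 summed over the libraries, the 3 highest and 3 lowest ratios per pair with at least 200 reads, and up to 4 of each list. The longest ATG frame was read from the transcript sequence. Shared sequence is the percent of 25-base words found in transcripts of genes that do not overlap the member on the same strand. It was planned against the genome and was computed against transcripts, since no genome sequence was used here. Python 3.11.15, numpy 2.4.6, pandas 2.3.3 and scipy 1.17.1 were used, and the ratio script was tested on simulated data.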

Additional observations from a re-analysis of the deposited data

Results flagged for a closer look

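Reads outside the rule were found on Gm10076, with 11890 in Chx, 10276 in Harr and 2774 in WT, and on Gm42418, with 2702, 1489 and 3162. Both transcripts are left out by the rule. Genes of the class TEC, 3218 in number, had 11157, 4467 and 8545 reads and belong to none of the 5 classes. All 3 lie above the level of 3 counts in each library. No group has 4 or more samples, so no sample was compared with others of its group.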

How the results depend on the processing

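No paired analysis was possible because each treatment has 1 library. For the same reason no replicate could be left out. The Chx over WT median, -0.01 with an interval that includes 0, was 0.008 with at least 20 reads and 0.015 with at least 200. No other value in this comparison of settings changed sign. Of 159 alternative values 88 stayed within their interval or within 1.5 times the count, and 71 moved.

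The share of library reads on lncRNAs moved under every alternative. In Chx, Harr and WT it was 0.201%, 0.413% and 0.2005% with the transcript with the most reads per gene, 0.174%, 0.356% and 0.174% without same-strand overlap with coding exons, 0.146%, 0.308% and 0.146% without small RNA genes, 0.167%, 0.351% and 0.166% with under 20% shared words, and 0.158%, 0.323% and 0.157% without Peg13. Without coding overlap the lincRNA share was 0.0582% in Chx, and the processed_transcript share 0.0414%, 0.0819% and 0.0406%. The log2 odds ratio to CDS reads for Harr over Chx was 1.63 without small RNA genes and 1.58 without Peg13. For Harr over WT it was 1.55 without coding overlap, 1.59 without small RNA genes, 1.59 with under 20% shared words and 1.55 without Peg13.

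The median log2 ratio of Harr over Chx was 1.71 per 1000000 CDS reads, 1.73 with median-of-ratios size factors, 1.10 with at least 200 reads and 1.22 with a pseudocount of 5. For Harr over WT it was 1.71 and 1.69 with the scalings, and for Chx over WT -0.079 with size factors. Members at least 2-fold higher in Harr than in Chx numbered 351 with at least 20 reads and 49 with at least 200. With the 2 scalings they numbered 269 and 274, and 239 with either against WT. Those lower numbered 11 and 3 at these minimums, 3 with either scaling, 4 with a pseudocount of 5, 4 with under 20% shared words, and 3 with under 20% in the most-read exon (an alternative chosen after seeing the data). Against WT the higher numbered 314 and 42 and the lower 9 and 2 at these minimums, and the lower 3 with either scaling, 2 with a pseudocount of 5 and 3 with under 20% in the most-read exon. Chx over WT gave 30 higher and 29 lower with at least 20 reads, 0 and 0 with at least 200, and 3 lower with a pseudocount of 5. A changed read minimum changes how many members enter.

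The median density in Chx, Harr and WT was 0.426, 0.898 and 0.430 RPKM with at least 20 reads, 2.03, 5.08 and 2.13 with at least 200, and 0.964, 2.04 and 0.973 with the transcript with the most reads. The first exon share was 40.1%, 46.4% and 33.4% without the most-read multi-exon member, and 39.1%, 43.9% and 31.9% with under 20% shared words in the most-read exon. It was 38.9% in Chx with under 20% shared words and 46.6% in Harr without coding overlap. Causes of the moves other than by construction were not tested. Depth limits single members: Harr, the shallowest library, has the widest intervals, and 6775 members had no read in any library.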
